A study of Arabidopsis thaliana with 41 samples.

Results

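The transcriptome of wild-type (WT) Arabidopsis rosette leaves was described from the 4 WT RNA-seq libraries of the series, out of 16 RNA-seq libraries and 41 samples in all. They were chosen by their label alone, and no mutant library was used. They are called here replicates 4, 5, 7 and 8, the numbers given by the submitters. Every library came from the accession Col-0 with no transgene or mutation named. Plants grew under long days (16 h of light, 8 h of darkness) at a photosynthetically active radiation of 80 to 90 µmol per m2 per s. At roughly the 10-leaf stage, 110 mg of tissue from leaves 5 and 6 was taken about 5 h after the lights came on. The study's methods describe each RNA-seq repeat as leaves of at least 6 plants put together, so a library is a pool of plants. Replicate 4 carries a second kind of label, with a description and a tissue entry that replicates 5, 7 and 8 lack, although the growth and harvest text is the same. Library and kind of label therefore cannot be told apart.

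Total RNA was depleted of ribosomal RNA before sequencing, so transcripts of the nucleus, the chloroplast and the mitochondrion were read together whether or not they carried a poly(A) tail. The authors' Salmon counts summed to 37499161 in replicate 4, 24076754 in replicate 5, 30781762 in replicate 7 and 23881499 in replicate 8. Counts on nuclear protein-coding genes summed to 12471472 in replicate 4 and to between 8079279 and 9481345 in the other 3 libraries. Of 32865 identifiers, 9010 had no count in any library, and between 21256 and 21640 had at least 1 count in a library. Intervals and lower bounds given below cover counting error only.

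As background, a mesophyll chloroplast carries its own small genome in many copies per cell. It encodes core subunits of the photosystems and the large subunit of Rubisco, the carbon-fixing enzyme. The nucleus encodes the small subunit of Rubisco, the chlorophyll-binding antenna proteins and most enzymes of the Calvin cycle, which are made in the cytosol and imported. A leaf also runs a circadian clock, a network of transcription factors whose transcripts peak at different times of day, and it responds within minutes to touch, wounding and cold.

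Chloroplast transcripts made up most of each library. They took 63.6% of all counts in replicate 4, 59.98% in replicate 5, 65.6% in replicate 7 and 61.2% in replicate 8, a mean of 62.6% ± 2.54 (SD, n = 4). The nucleus gave 34.2% ± 2.07, with 34.0% in replicate 4 and 31.5% to 36.4% in the others. Identifiers of the ENSRNA series, which are non-coding RNA models without a place in the nuclear annotation used here, took 2.46% ± 0.754, and the mitochondrial genome 0.705% ± 0.0516. Replicate 4 lay inside the range of the other 3 for the chloroplast and the nucleus. It was lowest for ENSRNA identifiers, with 1.55% against 2.16% to 3.21%, and highest for the mitochondrion, with 0.764% against 0.640% to 0.720%. By TPM, a unit that divides counts by transcript length and sets a fixed total per library, the chloroplast share was 74.4% ± 3.11 and the nuclear share 15.8% ± 1.76.

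**Figure D1:**
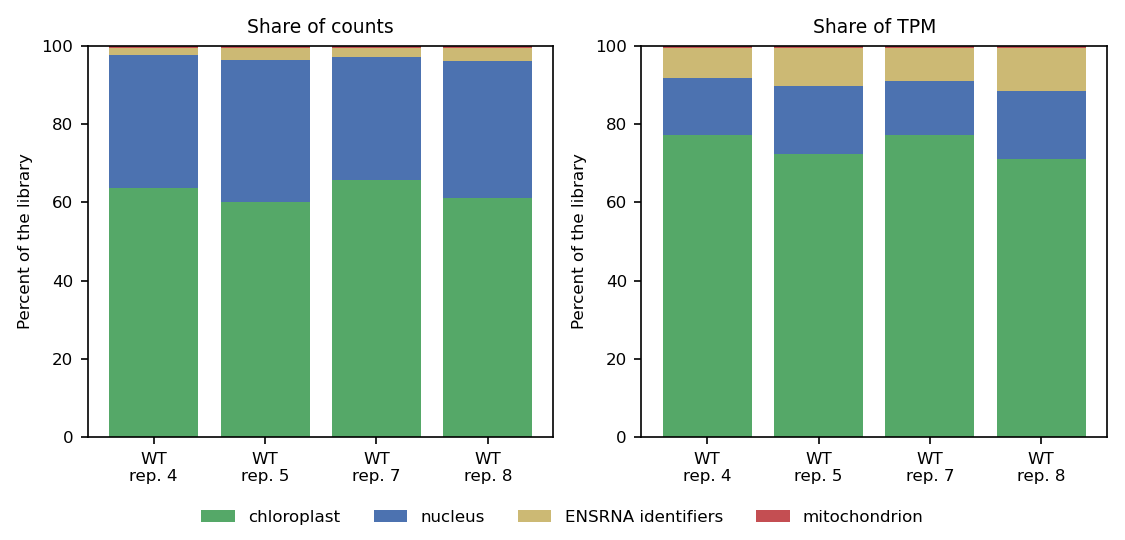
Share of each of the 4 WT libraries (horizontal axis) taken by chloroplast, nuclear, ENSRNA and mitochondrial identifiers, in percent of the library (vertical axis), by counts in one panel and by TPM in the other. The chloroplast takes 59.98% to 65.6% of counts and 71.0% to 77.0% of TPM in every library.

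A single chloroplast gene weighed heavily in these shares. PSBA, which encodes the D1 protein of photosystem II, took 37.0% of all counts in replicate 4, 32.5% in replicate 5, 31.7% in replicate 7 and 31.6% in replicate 8. Replicate 4 was highest, and the other 3 lay within 1 percentage point of each other. With PSBA left out of the total, the chloroplast share was 43.96% and the nuclear share 51.3% of counts. RBCL, the gene of the Rubisco large subunit, moved the other way. It took 17.7% of chloroplast counts in replicate 4, against 27.0%, 27.9% and 30.7% in replicates 5, 7 and 8.

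Chloroplast genes for the light reactions led the chloroplast transcripts. Deposited TPM over the whole library are given for organelle genes, and they sum to less in replicates 5, 7 and 8 (955462 to 964634) than in replicate 4 (1000000). PSBA had 210094 in replicate 4, 218016 in replicate 5, 190668 in replicate 7 and 194457 in replicate 8. On this scale replicate 4 lay inside the range of the others for PSBA. RBCL had 35606 TPM in replicate 4, against 53680, 55077 and 56085 TPM in replicates 5, 7 and 8, and replicate 4 lay below all of them. PSBJ and PSBE, small subunits of photosystem II, had 25808 and 26463 TPM in replicate 4. In replicates 5, 7 and 8 PSBJ had 34451 to 48623 TPM and PSBE 21576 to 25940 TPM. PETN, a small subunit of the cytochrome b6f complex, had 25914 TPM in replicate 4 and 27707 to 29229 TPM in the others. ATPH, the membrane ring subunit of the ATP synthase, had 25533 TPM in replicate 4 and 20716 to 25965 TPM in the others. PSAJ, of photosystem I, had 16082 TPM in replicate 4 and 14946 to 20501 TPM in the others. Replicate 4 was the lowest library for PSBJ and PETN and inside the range of the others for ATPH and PSAJ. For PSBE it was highest in deposited TPM and inside the range, with 26463 TPM against 22367, 27020 and 23736 TPM, once each library was set to the same total. The 10 most abundant chloroplast identifiers also held the transfer RNA entries TRNL.1 and TRNG.1 and the unnamed ATCG00930, and together they made up 52.1% of chloroplast TPM in replicate 4 and 60.3% to 65.5% in the others. All 4 libraries had counts on 112 of 116 chloroplast identifiers.

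By function, the 10 named photosystem II genes held 42.4% of chloroplast TPM in replicate 4 and 43.2% to 45.9% in the other 3 libraries. The 3 named cytochrome b6f genes held 6.32% and 6.36% to 6.62%, the 6 ATP synthase genes 5.76% and 4.93% to 6.21%, and the 3 photosystem I genes 3.06% and 3.17% to 3.91%, in the same order of libraries. Named genes for chloroplast gene expression were low. The 12 named ribosomal protein genes held 2.03% of chloroplast TPM in replicate 4 and 1.56% to 2.16% in the others. The 4 genes of the plastid-encoded RNA polymerase held 0.116% in replicate 4 and 0.0716% to 0.0950% in the others. The 18 named transfer RNA entries differed most, with 6.93% in replicate 4 against 15.1%, 15.1% and 14.7% in replicates 5, 7 and 8. TPM divides by length and so raises short transcripts. By counts, transfer RNAs held 0.300% of the chloroplast total in replicate 4 and 0.499% to 0.523% in the others. These are shares among transcripts that compete for the same total, so a fall of 1 group raises the others. Only 67 of the 116 chloroplast identifiers had a name or a description, so the groups are partial. The part of chloroplast TPM outside them was not assigned to a function.

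Mitochondrial transcripts were far less abundant. The most abundant mitochondrial identifier, the unnamed ATMG00650, had 739 TPM in replicate 4, against 425, 453 and 478 TPM in replicates 5, 7 and 8. Among named genes, subunits of complex I of the respiratory chain led. NAD1C had 484 TPM in replicate 4 and 309 to 315 TPM in the others, NAD4 357 TPM and 214 to 223 TPM, and NAD9 277 TPM and 232 to 239 TPM. In each of these replicate 4 lay above the other 3 libraries, which lay close together. ATMG00410, annotated as ATPase subunit 6-1, had 333 TPM in replicate 4 and 246 to 261 TPM in the others, whereas ATMG01190, annotated as ATP synthase subunit 1, was lowest in replicate 4, with 228 TPM in replicate 4 and 243 to 269 TPM in the others. The 10 most abundant mitochondrial identifiers held 61.8% of mitochondrial TPM in replicate 4 and 55.3% to 58.3% in the others. Counts were present on 108 of 134 mitochondrial identifiers in replicate 4 and on 123 or 124 in the others.

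For nuclear genes, TPM were set to sum to 1000000 over nuclear protein-coding genes in each library, and levels below are on this nuclear scale unless deposited TPM are named. Of the nuclear protein-coding genes, 16137 had at least 1 TPM in all 4 libraries and 2600 in some but not all. By their mean, 4491 genes lay between 1 and 5 TPM, 10278 between 5 and 50 TPM, 2625 between 50 and 500 TPM and 207 at 500 TPM or more. The nuclear RNA was spread over more genes in replicate 4. It took 457 genes to reach 50% of nuclear TPM in replicate 4, against 196, 239 and 230 genes in replicates 5, 7 and 8. The 10 most abundant genes held 12.6% in replicate 4 and 14.98% to 16.7% in the others, and the 100 most abundant held 33.8% and 41.3% to 43.4%. By chromosome, chromosomes 1 and 2 held more of the nuclear TPM than of the genes, with 28.4% to 29.5% of TPM for 26.1% of genes on chromosome 1 and 20.2% to 22.2% for 15.8% on chromosome 2. Chromosome 5 held less, with 18.5% to 19.2% of TPM for 23.0% of genes. So did chromosome 3, with 16.5% to 18.1% for 19.9%, and chromosome 4, with 13.1% to 14.1% for 15.2%. The chromosome 2 share includes AT2G01021, in the ribosomal DNA, with 0.0745% of nuclear TPM in replicate 4 and 2.38% to 4.40% in the others. It also includes 73 of 75 genes that match an organelle genome, and the 75 together held 2.55% to 3.49%. The share of chromosome 2 without these genes was not measured.

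The most abundant nuclear protein-coding gene was LHCB1.3 (AT1G29930), a gene of the main antenna protein of photosystem II. It had 27236 TPM in replicate 4, 25649 in replicate 5, 25718 in replicate 7 and 27593 in replicate 8, a mean of 26549 ± 1011 (SD, n = 4). Replicate 4 lay inside the range of the others. Its neighbours LHCB1.1 and LHCB1.2 encode nearly the same protein and lie beside it on chromosome 1. LHCB1.1 had 4408 TPM in replicate 4, against 10911, 10477 and 10591 TPM in replicates 5, 7 and 8. LHCB1.2 had 6782 TPM in replicate 4, against 9519, 9163 and 10566 TPM. Both lay below the other 3 libraries in replicate 4, where LHCB1.3 did not.

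These genes are close copies, which is why their sequences are shown. The first 120 coding bases of each follow, read from TAIR10.1, with capitals for bases that differ from LHCB1.3. LHCB1.3 is at chr1:10478071-10478190 on the plus strand, LHCB1.1 at chr1:10475773-10475892 and LHCB1.2 at chr1:10473127-10473246, both on the minus strand.
LHCB1.3: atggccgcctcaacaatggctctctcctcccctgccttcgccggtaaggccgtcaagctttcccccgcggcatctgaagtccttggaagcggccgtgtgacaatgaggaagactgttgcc
LHCB1.1: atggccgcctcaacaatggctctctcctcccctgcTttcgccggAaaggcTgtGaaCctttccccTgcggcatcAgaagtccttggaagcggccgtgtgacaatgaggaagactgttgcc
LHCB1.2: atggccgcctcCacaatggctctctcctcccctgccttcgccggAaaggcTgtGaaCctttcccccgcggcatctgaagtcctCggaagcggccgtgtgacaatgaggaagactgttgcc
LHCB1.1 differed from LHCB1.3 at 7 of these bases and at 31 of 804 over the coding sequence, and LHCB1.2 at 6 and at 29. Salmon assigns a read that fits several copies by estimate, so the division of counts among these genes is uncertain, and likewise among the Rubisco small subunit genes RBCS1B, RBCS2B and RBCS3B and between LHCB2.1 and LHCB2.2. Among 386 nuclear genes searched for this text, 26 had a copy at least 90% identical over at least 50% of the transcript.

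Antenna genes filled most of the top ranks. LHCB1.5 had 18936 TPM in replicate 4 and 18140 to 19120 TPM in the others. LHCA4, an antenna protein of photosystem I, had 11664 TPM in replicate 4 and 11432 to 12477 TPM in the others, and LHCB5, a minor antenna protein of photosystem II, had 10999 TPM and 11826 to 12056 TPM. PSBR, a subunit of photosystem II, had 9965 TPM in replicate 4 and 10539 to 10684 TPM in the others. Replicate 4 lay inside the range of the others for LHCB1.5 and LHCA4 and slightly below it for LHCB5 and PSBR. The Rubisco small subunit genes were less even. RBCS1A had 7790 TPM in replicate 4, against 13267, 11832 and 12527 TPM in replicates 5, 7 and 8, and RBCS3B had 4547 TPM against 10468, 10568 and 10191 TPM. Replicate 4 lay below the others for both. Of the genes outside photosynthesis, chosen after their values were seen, the metallothionein gene MT2B had 3143 TPM in replicate 4 and 3570 to 4348 TPM in the others, and GER1, a germin-like protein gene, had 3149 TPM and 2599 to 3094 TPM.

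**Figure D2:**
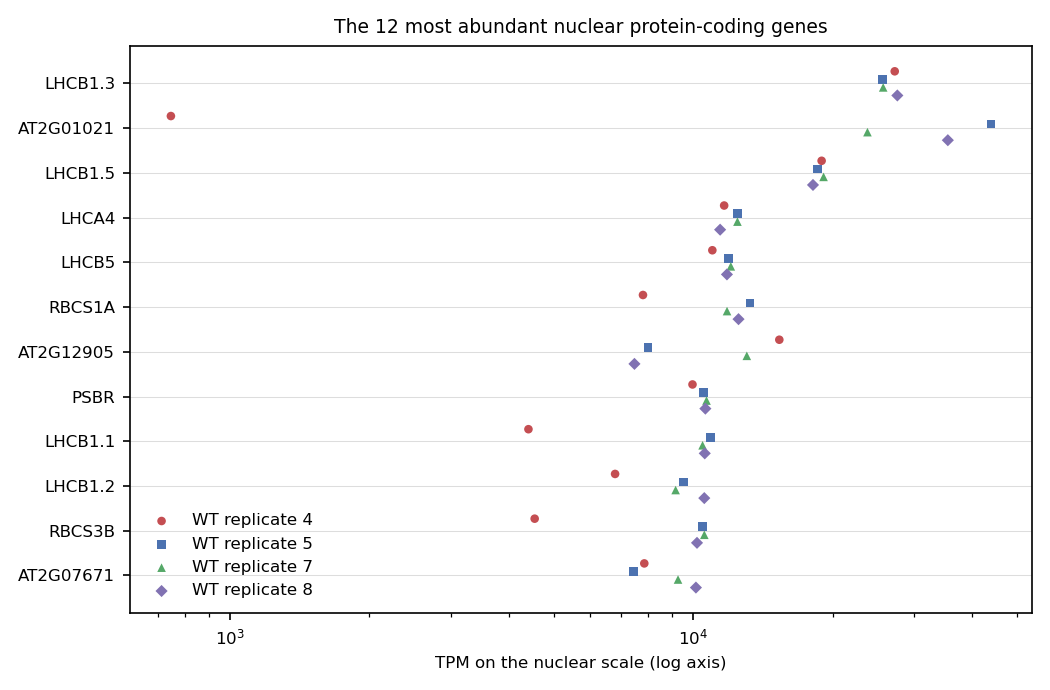
TPM on the nuclear scale (horizontal log axis) of the 12 most abundant nuclear protein-coding genes (vertical axis), with 1 point per WT library. LHCB1.3 lies between 25649 and 27593 TPM in all 4 libraries, while AT2G01021 lies at 745 TPM in replicate 4 and between 23782 and 43955 TPM in the others.

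The second gene by mean level, AT2G01021, is annotated as protein-coding but lies within the ribosomal DNA at the end of chromosome 2, just past a 5.8S ribosomal RNA gene. It had 745 TPM in replicate 4, against 43955, 23782 and 35466 TPM in replicates 5, 7 and 8 (counts of 145, against 6379, 3544 and 4626). It alone held 0.0745% of nuclear TPM in replicate 4 and 2.38% to 4.40% in the others. Its transcript is only 102 bases long, and TPM divides by length, so its rank and share hold for TPM and not for counts. In replicate 5 its 6379 counts stood among 8585379 counts on nuclear protein-coding genes. Reads matching ribosomal RNA were removed by the authors, and the part of that step in its level was not tested. Its whole transcript, at chr2:6571-6672 on the plus strand of TAIR10.1, is shown because of that place and has no capitals.
AT2G01021: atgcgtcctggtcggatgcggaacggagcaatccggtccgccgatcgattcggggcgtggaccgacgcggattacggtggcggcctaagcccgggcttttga

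Some nuclear genes are copies of organelle genes. A set of 75 nuclear protein-coding genes matched an organelle genome at 95% identity or more over at least 50% of the transcript. Of these, 73 matched the mitochondrial genome, 73 lie on chromosome 2 and 72 lie between positions 3239693 and 3503476 there, where a copy of the mitochondrial genome sits near the centromere. Their median identity was 100%, so for many of them nuclear and organelle reads cannot be told apart. Together they held 3.48% of nuclear TPM in replicate 4 and 2.55% to 3.49% in the others. They include AT2G12905, with 15344 TPM in replicate 4 and 7467 to 13055 TPM in the others, and AT2G07671, of the ATP synthase subunit C family, with 7842 TPM and 7436 to 10136 TPM.

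The 5 most abundant nuclear non-coding genes reached high TPM on the nuclear scale, a unit that divides by length and so raises short transcripts. AT1G15405 had 102219 TPM in replicate 4 and 91485 to 140508 TPM in the others, with an identical copy at AT1G05163. The small nucleolar RNA genes AT2G04965 (AtU49-2), AT2G08770 (snoR158a) and AT5G02565 (AtsnoR106) had 29093, 12357 and 5047 TPM in replicate 4. In replicates 5, 7 and 8 they had 22910 to 36706, 19174 to 29610 and 5335 to 6918 TPM. The third by mean was U1.7, a gene of the U1 small nuclear RNA, which pairs with the 5′ splice sites of introns. It had 14844 counts in replicate 4 and 16779 in replicate 8, but 0 in replicates 5 and 7.

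Some other U1 genes were also present in some libraries alone. U1.5 had 4733 counts in replicate 4 and 0 in replicates 5, 7 and 8, which was at least 2602-fold higher in replicate 4 with a floor of 3 counts over the 3 libraries. U1.6 had 375 counts in replicate 8 and 0 in the other libraries. U1.4 had 897 counts in replicate 4, 948 in replicate 5, 1550 in replicate 7 and 2146 in replicate 8, and U1.9 58, 74, 102 and 170 in that order, so both were present in every library. Summed over the family, U1 genes had 21121 counts in replicate 4, 1023 in replicate 5, 1652 in replicate 7 and 19531 in replicate 8. So replicates 4 and 8 were high, replicates 5 and 7 were low, and the split did not follow the kind of label. The sequences show how alike the copies are. They are from TAIR10.1, with U1.7 at chr3:1657767-1657928 on the plus strand, U1.5 at chr1:2538074-2538238 and U1.4 at chr5:8972808-8972971, both on the minus strand. Capitals mark bases that differ from U1.7.
U1.7: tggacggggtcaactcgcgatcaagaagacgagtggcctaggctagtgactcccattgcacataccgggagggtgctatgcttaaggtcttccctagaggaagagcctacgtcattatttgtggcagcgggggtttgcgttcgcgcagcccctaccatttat
U1.5: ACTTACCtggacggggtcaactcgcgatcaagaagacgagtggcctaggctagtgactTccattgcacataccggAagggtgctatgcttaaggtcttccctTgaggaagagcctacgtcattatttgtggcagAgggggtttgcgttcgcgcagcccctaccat
U1.4: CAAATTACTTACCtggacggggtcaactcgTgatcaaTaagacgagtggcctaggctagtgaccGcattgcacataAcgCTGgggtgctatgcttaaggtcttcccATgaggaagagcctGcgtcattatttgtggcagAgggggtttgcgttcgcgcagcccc
U1.5 had 4 substitutions, 7 inserted and 4 deleted bases against U1.7, and U1.4 had 11 substitutions, 13 inserted and 11 deleted bases. The division of counts among them is uncertain.

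Genes were then grouped by function with lists of named genes. Photosynthesis dominated the nuclear coding transcripts. The 91 genes of 8 lists (antenna, both photosystems, electron transport with the ATP synthase, Rubisco with its activase, Calvin cycle, photorespiration and carbonic anhydrase) held 24.4% of nuclear TPM in replicate 4, against 32.9%, 32.0% and 31.7% in replicates 5, 7 and 8. The mean was 30.3% ± 3.94 (SD, n = 4), and replicate 4 lay below the others. The 21 antenna genes alone held 12.9% in replicate 4 and 15.1% to 15.3% in the others. The photosystem II core (11 genes) held 3.84% in replicate 4 and 4.49% to 4.67% in the others. The photosystem I core (12 genes) held 3.30% and 3.99% to 4.23%. The gap was wider for carbon fixation, at 1.58% in replicate 4 and 3.35% to 3.62% in the others for Rubisco and its activase (5 genes), and 0.884% and 1.57% to 1.74% for the Calvin cycle (16 genes).

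Protein synthesis came next. The 193 cytosolic ribosomal protein genes held 2.84% of nuclear TPM in replicate 4, 2.51% in replicate 5, 2.61% in replicate 7 and 3.35% in replicate 8, and the 43 plastid ribosomal protein genes 1.21%, 1.19%, 1.34% and 1.41%, with replicate 4 inside the range of the others for both. The 36 aquaporins, water channels of the membranes, held 0.687% in replicate 4 and 0.564% to 0.681% in the others. The 19 glucosinolate genes, of the mustard oil defence, held 0.615% and 0.523% to 0.560%, and the 51 histone genes 0.333% and 0.259% to 0.301%. Among stress lists, cold and touch genes (14) held 0.645% in replicate 4 and 0.350% to 0.455% in the others. The list summed to 6446 TPM in replicate 4 and to 3566, 4550 and 3501 TPM in replicates 5, 7 and 8. KIN2 alone had 3438 TPM in replicate 4, against 180, 168 and 193 TPM, so the higher share was not list-wide. Rapid wound and elicitor genes (16) held 0.162% in replicate 4, 0.361% in replicate 5, 0.427% in replicate 7 and 0.205% in replicate 8. Heat shock genes (11) held 0.00310% in replicate 4 and at most 0.00224% in the others.

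**Figure D3:**
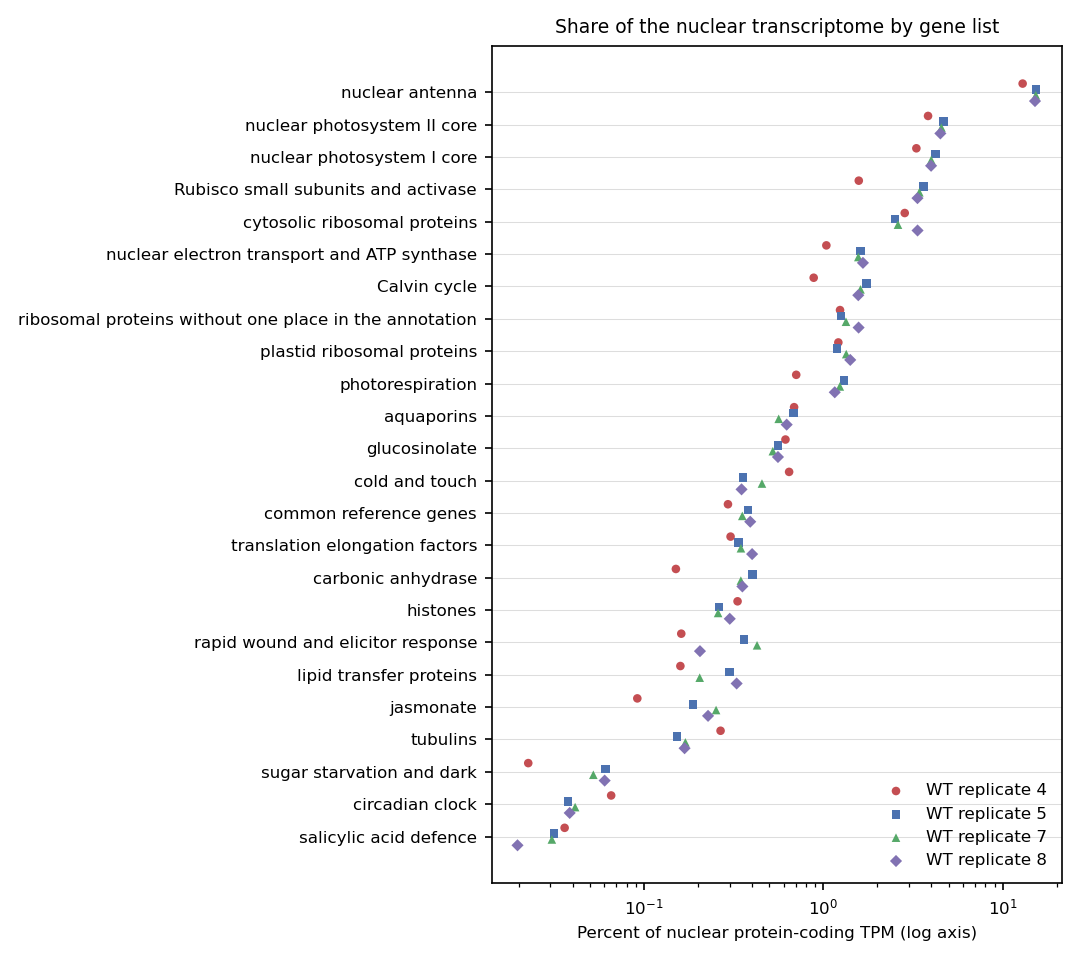
Percent of nuclear protein-coding TPM (horizontal log axis) held by each gene list or family with a mean over 0.02% (vertical axis), with 1 point per WT library. The antenna list is highest in all 4 libraries, at 12.9% in replicate 4 and 15.1% to 15.3% in the others, and the points of the other libraries lie closer to each other than to replicate 4 for the photosynthesis lists.

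Markers of other organs were at or near 0. All 5 shoot meristem markers (STM, WUS, CLV3, KNAT1 and CUC2) had 0 counts in every library, which allows up to 3 counts in each. The root markers RHD6, EXPA7 and COBL9 had 0 counts, CASP1 had 0.27 TPM in replicate 4 and 0 in the others, and PYK10 had 8.97 TPM in replicate 4 and 0.232 to 0.845 TPM in the others. Flower markers summed to 1.37 TPM in replicate 4 and 3.15 to 5.84 TPM in the others over 7 genes, with AP3 and LFY at 0 counts. Pollen markers summed to 0 in replicate 4 and to at most 0.768 TPM in the others over 4 genes. Seed storage and oil body markers summed to 0 in replicate 4 and to 1.704 to 4.71 TPM in the others over 8 genes. Cells of the veins and the epidermis were present in each library. SUC2, the phloem sucrose carrier, had 168 TPM in replicate 4 and 174 to 209 TPM in the others. The 6 phloem markers summed to 479 TPM in replicate 4 and 472 to 577 TPM in the others, the 6 xylem markers to 53.4 TPM and 56.5 to 67.0 TPM, and the 6 guard cell markers to 1907 TPM and 1635 to 1852 TPM, nearly all of it from TGG1. Trichome markers summed to 1.51 TPM in replicate 4 and 5.65 to 11.8 TPM in the others over 3 genes. In these bulk samples fewer cells of a type and less RNA per cell cannot be told apart.

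How far nuclear genes varied was measured on 13084 nuclear protein-coding genes with a mean of at least 5 TPM. The measure was the range, highest minus lowest, of log2 CPM, counts over a fixed library total, after TMM scaling, which sets the bulk of genes equal between libraries. Over all 4 libraries 3196 genes (24.4%) varied by more than 2-fold, and within replicates 5, 7 and 8 the number was 506 (3.87%). A range over 4 libraries is never smaller than that over 3 of them, and each of the 506 was among the 3196. The median range was 0.63 over 4 libraries and 0.31 within replicates 5, 7 and 8 (log2). Replicate 4 was the highest library for 1500 of the 3196 genes and the lowest for 1529. In pairs, replicate 4 differed by more than 2-fold from replicates 5, 7 and 8 at 2205, 2270 and 2179 genes, whereas these 3 differed from each other at 201 to 266 genes. Such genes were found at every level over the 4 libraries, at 24.7% of genes with a mean of 5 to 20 TPM, 21.9% at 20 to 100 TPM and 31.9% at 100 TPM or more.

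**Figure D4:**
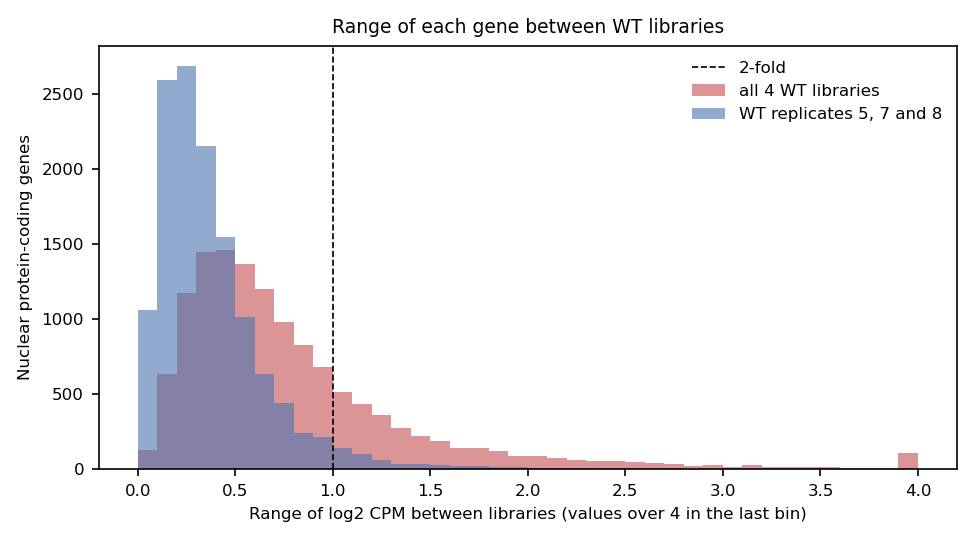
Number of nuclear protein-coding genes (vertical axis) by the range of log2 CPM between libraries (horizontal axis, log2 units), over all 4 WT libraries and within replicates 5, 7 and 8. The dashed line marks 2-fold, past which lie 3196 genes over the 4 libraries and 506 within the 3.

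Among the 15 genes with the largest ranges, 6 were copies of organelle genes on chromosome 2. AT2G07641 had 0.569 TPM in replicate 4, against 181, 272 and 213 TPM in replicates 5, 7 and 8, and AT2G07739, of the Ycf1 family, had 22.5 TPM against 1221, 1539 and 1488 TPM. AT2G07741, annotated as an ATPase subunit A, went the other way, with 568 TPM in replicate 4 and 1.98 to 2.41 TPM in the others. Of the 66 organelle-like genes in the set, 43 (65.2%) varied over 2-fold between the 4 libraries and 3 within replicates 5, 7 and 8. Identifiers of the organelle genomes differed between genomes. For organelle and ENSRNA identifiers the range was taken on another scale, the log2 share of that genome's or series' own counts, without TMM. Such shares compete for the same total, so a change in PSBA moves the other chloroplast shares. These numbers are therefore not on the scale of the nuclear genes. Of 110 chloroplast identifiers with at least 100 counts, 60 varied over 2-fold between the 4 libraries and 0 within replicates 5, 7 and 8. The numbers were 13 and 2 of 56 mitochondrial identifiers, and 42 and 16 of 56 ENSRNA identifiers. YCF1.1 had 76 counts in replicate 4, against 13256, 18619 and 9801 in replicates 5, 7 and 8, and ATCG00690 had 26851 against 2055, 4074 and 3162. In the mitochondrial genome, NAD3 of complex I had 1355 counts in replicate 4, against 95, 188 and 100 in the others, and ATMG00030 had 1 count against 617, 1214 and 1048. Among ENSRNA identifiers, ENSRNA049495620 had 5049 counts in replicate 5 and 7225 in replicate 7, with 0 in replicates 4 and 8.

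The other 9 of the 15 included genes with known roles. AT1G07050, a gene with the CCT motif found in clock and flowering regulators, had 171 TPM in replicate 4, against 1.74, 1.05 and 1.00 TPM in replicates 5, 7 and 8. AT5G23240, a DNAJ-type chaperone gene, had 221 TPM in replicate 4, against 2.36, 4.43 and 1.78 TPM. Both were high in replicate 4 alone. CYP94B3, which inactivates jasmonoyl-isoleucine by hydroxylation, had 1.73 TPM in replicate 4, against 48.2, 144 and 55.5 TPM. AT1G68945 had 3 counts in replicate 4, against 275, 294 and 330, a ratio of 0.0055 with a 95% counting interval of 0.00113 to 0.0161. AT5G38700 had 0 counts in replicate 4 and 40, 209 and 55 in the others, and it alone of these 9 also varied over 4-fold within replicates 5, 7 and 8. Further down, chosen after their values were seen, GRP7, an RNA-binding protein of the clock, had 1199 TPM in replicate 4, against 18.1, 21.7 and 27.4 TPM. FKF1, a blue light receptor of flowering time, had 60.3 TPM in replicate 4 against 0.963, 1.12 and 1.87 TPM, and PIL1, a shade-induced transcription factor, had 9.99 TPM against 303, 468 and 320.4 TPM. NIA1, a nitrate reductase gene, had 9.35 TPM in replicate 4 against 228, 189.5 and 117 TPM.

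The most even genes, among those with a mean of at least 50 TPM, were AT1G22750, AXS2, ADF1, AT5G59250 and AT3G60340, with ranges of 0.01 to 0.04 (log2 CPM) over the 4 libraries. AXS2 makes a precursor of the cell wall sugar apiose, and ADF1 severs actin filaments. ADF1 had 145 TPM in replicate 4 and 111, 111 and 119 TPM in replicates 5, 7 and 8. On the nuclear scale replicate 4 was thus above the others for a gene whose TMM-scaled level was flat. TMM placed the median tested gene at 0.01 between replicate 4 and the other 3, whereas on log2(TPM + 1) the median gene was 0.38 higher in replicate 4. The nuclear RNA of replicates 5, 7 and 8 was held by fewer genes, as given above. Differences given next are on the TMM scale, and levels stay on the nuclear TPM scale.

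The question of how replicate 4 differed from replicates 5, 7 and 8 was put to a fit over 18586 nuclear genes with edgeR's quasi-likelihood test. A call needed a Benjamini-Hochberg adjusted p under 0.01 and at least 1.5-fold. It called 2281 genes (12.3% of those tested), 1079 higher (5.81%) and 1202 lower (6.47%) in replicate 4. With 1 library on one side, its spread was assumed to equal that of the other 3, and an exact permutation of 1 against 3 cannot go below p = 0.25, so these p-values measure distance from the spread of replicates 5, 7 and 8. Genes called lower held 12.3% of nuclear TPM in replicate 4 and 27.3% to 29.2% in the others, and genes called higher 8.86% and 2.201% to 2.31%. Base composition moved with the difference. The median gene with under 40% GC was 0.18 higher (log2 CPM) in replicate 4 and the median gene with 46% GC or more was 0.53 lower, and the median GC was 40.6% for genes called higher, 42.3% for genes called lower and 41.3% for all tested. Its part in the calls was not tested. Counts of called genes in the lists below are to be read beside the shares of all tested genes called, given in this paragraph.

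Photosynthesis genes were called lower in replicate 4 or not called. Of the 91 genes, 53 were called lower and 0 higher (1 higher at an unadjusted p under 0.05, 0 by DESeq2 and by limma-voom), with a median difference of -1.01 (log2) beside 0.01 for all genes tested. The count depended on the scale, at 15 with limma on log2(TPM + 1), 14 on log2(TPM + 0.1) and 32 with organelle genes in the fit. All 50 genes of these lists that varied over 2-fold between the 4 libraries had their lowest level in replicate 4. Within replicates 5, 7 and 8, 0 of the 91 varied that far, beside 3.87% of all genes. Rubisco activase, RCA, which frees Rubisco of bound sugars, had 1056 TPM in replicate 4, against 4332, 4674 and 4121 TPM in replicates 5, 7 and 8, a difference of -2.60 ± 0.19 (log2, SE, edgeR adjusted p = 0.000242). RBCS2B had 1070 TPM in replicate 4, against 5744, 5253 and 4566 TPM (-2.85, edgeR adjusted p = 0.000506). All 5 genes of the Rubisco list were called lower, with a median of -1.76.

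Lower calls were found in each photosynthesis list. They were 12 of 16 in the Calvin cycle (median -1.12) and 12 of 16 in photorespiration (median -1.40), against 8 of 21 antenna genes (median -0.70), 5 of 12 photosystem I genes (median -0.74), 6 of 11 photosystem II genes (median -0.90) and 3 of 8 electron transport genes (median -0.83). The lists were not tested against each other. FBA2, a plastid aldolase, had 657 TPM in replicate 4, against 2470, 2193 and 2088 TPM, and GAPB, of the plastid glyceraldehyde phosphate dehydrogenase, had 719.9 TPM against 2200, 1964 and 1951 TPM. Replicate 4 lay well below the others for both. CAT2, the peroxisomal catalase that removes hydrogen peroxide from photorespiration, had 68.8 TPM in replicate 4, against 565, 381 and 378 TPM in replicates 5, 7 and 8 (-3.15 ± 0.34 log2, SE, edgeR adjusted p = 0.001). GS2, the plastid glutamine synthetase, had 714 TPM in replicate 4, against 1578, 1707 and 1626 TPM. TKL1, a transketolase, was not called and overlapped, with 531 TPM in replicate 4 and 528 to 574 TPM in the others. Among the antenna genes called, LHCB2.3 had 767 TPM in replicate 4 against 3639, 3298 and 3464 TPM (-2.53, edgeR adjusted p = 0.000289).

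Other members went against the list. LHCB1.4 had 8077 TPM in replicate 4, against 6240, 6945 and 7074 TPM, which is higher on the nuclear scale but -0.14 on the TMM scale (edgeR adjusted p = 0.514), so its direction depended on the scaling. LHCB1.3 was also flat in TPM and at -0.40 on the TMM scale (edgeR adjusted p = 0.0676). FNR2, a ferredoxin-NADP reductase, had 1540 TPM in replicate 4 against 741, 859 and 739 TPM (0.51, edgeR adjusted p = 0.0615), and PSAG, of photosystem I, had 2262 TPM against 1638, 1254 and 1519 TPM (0.17, edgeR adjusted p = 0.541). These did not pass the test.

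The clock genes moved in both directions. The count within replicates 5, 7 and 8 given next is to be read beside 3.87% of all genes, and for 14 genes it is near that share. Of 16, 6 were called higher and 6 lower in replicate 4, with a median of 0.09, and 0 of the 14 in the variation set varied over 2-fold within replicates 5, 7 and 8. The 6 called higher are known for transcripts that peak in the afternoon or evening. TOC1, a repressor of morning genes, had 96.3 TPM in replicate 4, against 12.3, 15.1 and 14.4 TPM in replicates 5, 7 and 8 (2.29 ± 0.15 log2, SE, edgeR adjusted p = 0.000175). LUX, the DNA-binding subunit of the evening complex, had 67.0 TPM in replicate 4 against 7.98, 10.5 and 12.1 TPM, and its relative BOA had 6.27 TPM against 0.518, 0.768 and 1.03 TPM. All 3 were higher in replicate 4 than in any other library. ELF4, also of the evening complex, had 207 counts in replicate 4 and 0 in replicates 5, 7 and 8, at least 114-fold higher with a floor of 3 counts over the 3 libraries. ELF3, its partner, had 31.7 TPM in replicate 4 against 7.37, 7.86 and 8.17 TPM, and GI, a scaffold of the clock and flowering pathways, had 87.9 TPM against 22.8, 25.4 and 24.1 TPM.

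The 6 called lower include the morning transcription factors. CCA1 had 2.29 TPM in replicate 4, against 25.4, 25.5 and 20.2 TPM in replicates 5, 7 and 8 (-3.82 ± 0.29 log2, SE, edgeR adjusted p = 0.000259). LHY, its close relative, had 1.04 TPM in replicate 4 against 10.0, 9.54 and 6.66 TPM. PRR9, the earliest of the pseudo-response regulators in the day, had 5.19 TPM in replicate 4 against 22.6, 16.4 and 16.95 TPM. In all 3 replicate 4 lay below the lowest of the others. RVE8 and its co-activator LNK2 had 0.954 and 27.4 TPM in replicate 4, against 6.70 to 11.8 TPM and 70.7 to 80.0 TPM in the others, and RVE1 had 1.27 TPM against 4.70 to 6.93 TPM. PRR5 had 82.3 TPM in replicate 4 against 15.7, 25.3 and 33.3 TPM and did not pass the adjusted limit (1.23, edgeR adjusted p = 0.016). PRR7, LNK1 and CHE were not called. On log2(TPM + 1) with limma, 3 clock genes stayed called lower. The labels give the same harvest time for all 4 libraries, and clock time was not measured otherwise.

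**Figure D5:**
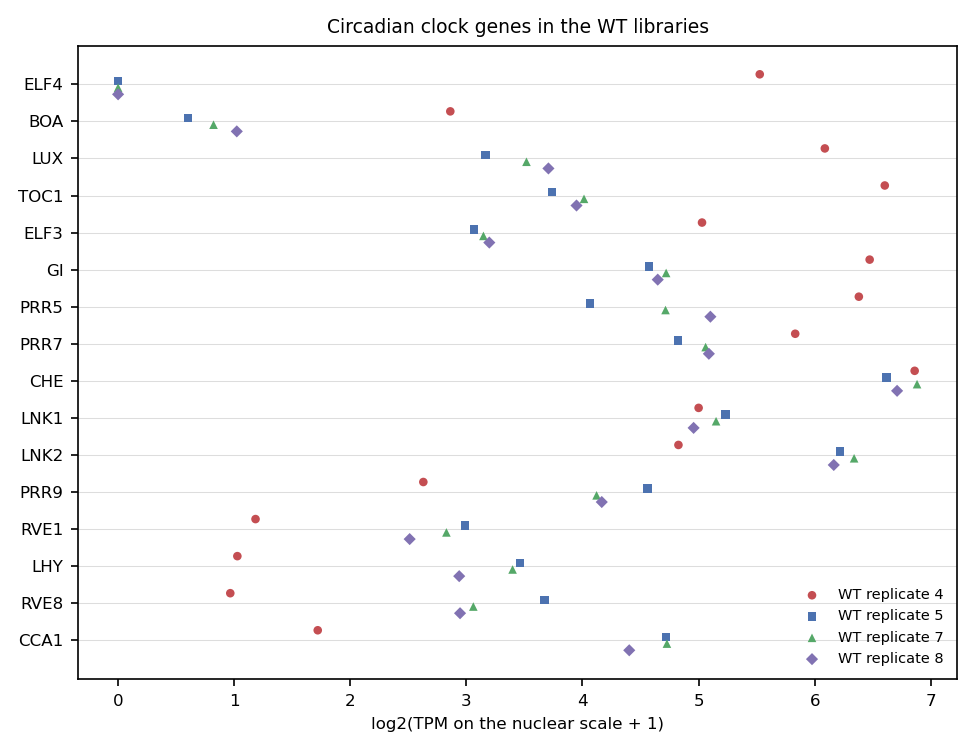
Levels of the 16 clock genes as log2(TPM on the nuclear scale + 1) (horizontal axis) in each WT library, 1 gene per line (vertical axis) and 1 point per library. TOC1 lies at 96.3 TPM in replicate 4 and 12.3 to 15.1 TPM in the others, and CCA1 at 2.29 TPM in replicate 4 and 20.2 to 25.5 TPM in the others.

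Promoters of these genes are shown because known clock motifs can be looked for in them. The 300 bases before each annotated start were read from TAIR10.1 and searched on both strands for the evening element AAAATATCT, the site that CCA1 and LHY bind, and for the G-box CACGTG, bound by several light and clock factors. The letters of the 2 motifs do not overlap each other. Of 27375 nuclear protein-coding promoters of this length, 2.79% held an evening element and 7.10% a G-box. The evening element was found in 3 of the 6 clock genes called higher (TOC1, LUX and BOA) and 0 of the 6 called lower, and the G-box in 2 of 6 and 4 of 6. In the next lines capitals mark the evening element or its reverse complement for TOC1 (chr5:24674663-24674962, plus strand), LUX (chr3:17182742-17183041, plus) and BOA (chr5:24003588-24003887, plus), and the G-box for CCA1 (chr2:19245291-19245590, plus) and LHY (chr1:37872-38171, minus).
TOC1: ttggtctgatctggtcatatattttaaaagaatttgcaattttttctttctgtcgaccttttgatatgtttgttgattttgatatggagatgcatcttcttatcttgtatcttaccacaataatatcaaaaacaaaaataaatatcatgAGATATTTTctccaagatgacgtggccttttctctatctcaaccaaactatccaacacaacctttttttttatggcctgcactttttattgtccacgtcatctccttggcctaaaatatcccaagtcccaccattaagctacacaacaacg
LUX: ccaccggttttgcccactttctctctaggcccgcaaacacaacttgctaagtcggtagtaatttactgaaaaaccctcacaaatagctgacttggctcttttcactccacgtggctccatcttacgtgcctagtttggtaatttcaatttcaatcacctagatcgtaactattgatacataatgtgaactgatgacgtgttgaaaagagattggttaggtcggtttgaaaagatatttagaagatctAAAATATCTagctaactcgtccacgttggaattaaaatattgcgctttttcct
BOA: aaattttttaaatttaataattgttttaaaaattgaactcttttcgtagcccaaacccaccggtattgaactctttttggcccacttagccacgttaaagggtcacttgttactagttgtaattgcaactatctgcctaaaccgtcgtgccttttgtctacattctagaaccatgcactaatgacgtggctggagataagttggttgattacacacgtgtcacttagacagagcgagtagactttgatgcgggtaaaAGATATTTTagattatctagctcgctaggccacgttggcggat
CCA1: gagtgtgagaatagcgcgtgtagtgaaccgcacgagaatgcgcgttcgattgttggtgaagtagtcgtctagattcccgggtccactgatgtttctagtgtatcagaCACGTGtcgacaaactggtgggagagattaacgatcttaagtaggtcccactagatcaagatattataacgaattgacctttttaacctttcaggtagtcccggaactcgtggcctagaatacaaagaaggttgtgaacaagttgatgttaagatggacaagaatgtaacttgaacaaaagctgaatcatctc
LHY: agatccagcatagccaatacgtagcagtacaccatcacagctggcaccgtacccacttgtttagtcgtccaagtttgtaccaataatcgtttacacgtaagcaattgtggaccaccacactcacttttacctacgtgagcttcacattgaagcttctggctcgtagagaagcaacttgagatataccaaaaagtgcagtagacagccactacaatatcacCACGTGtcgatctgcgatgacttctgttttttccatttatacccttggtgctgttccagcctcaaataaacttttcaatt
The element lay 151 to 143 bases before the start of TOC1, 53 to 45 before LUX and 43 to 35 before BOA, and the G-box 193 to 188 before CCA1 and 80 to 75 before LHY. Over all called protein-coding genes with a promoter read, an evening element stood in 80 of 1022 called higher (7.83%) and 24 of 1157 called lower (2.07%), beside 543 of 18111 tested (2.998%). These are counts of letters, and no binding was measured.

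A group of cold-regulated genes was higher and a pair of touch genes lower. Of 14 cold and touch genes, 5 were called higher and 2 lower in replicate 4, with a median of 0.14. KIN2, a small cold-induced protein, had 3438 TPM in replicate 4, against 180.1, 168 and 193 TPM in replicates 5, 7 and 8 (3.85 ± 0.16 log2, SE, edgeR adjusted p = 3.39e-05). Its copy KIN1, 92.1% identical, had 18.7 TPM in replicate 4 and 7.35 to 13.7 TPM in the others. COR15B and COR15A, which protect chloroplast membranes during freezing, had 531 and 565 TPM in replicate 4. In replicates 5, 7 and 8 COR15B had 54.1, 37.2 and 60.2 TPM and COR15A 148, 50.2 and 99.6 TPM. RD29A, induced by cold and drought, had 114 TPM in replicate 4 against 12.2, 15.4 and 17.5 TPM. Replicate 4 was above every other library for these 4 genes. CBF3, a transcription factor that switches on such genes, had 44.9 TPM in replicate 4 against 13.9, 5.09 and 4.79 TPM and only just passed (edgeR adjusted p = 0.00977), a call lost under 7 alternatives. CBF1 and CBF2 were not called. TCH4, a cell wall enzyme, and TCH3, a calmodulin-like protein, both known for induction by touch, had 433 and 419.7 TPM in replicate 4, against 1300 to 1776 TPM and 844 to 1348 TPM in the others. The higher calls numbered 3 with DESeq2, with limma on TPM and with no count filter, and the lower calls 0 or 1 with limma on TPM and 4 without replicate 8.

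The cold element is known by its core CCGAC, which the CBF proteins bind. It stood in 3 of the 5 promoters of the called-higher genes, beside 13.9% of all promoters. COR15A, COR15B and RD29A held it, and KIN2 and CBF3 did not. Over all protein-coding genes called higher it stood in 16.8% of promoters, beside 15.3% of those tested and 14.9% of those called lower. RD29A held it 3 times on the strand shown, 140 to 136, 90 to 86 and 33 to 29 bases before the start. Its promoter is shown, at chr5:21240417-21240716 on the plus strand of TAIR10.1, with the core in capitals.
RD29A: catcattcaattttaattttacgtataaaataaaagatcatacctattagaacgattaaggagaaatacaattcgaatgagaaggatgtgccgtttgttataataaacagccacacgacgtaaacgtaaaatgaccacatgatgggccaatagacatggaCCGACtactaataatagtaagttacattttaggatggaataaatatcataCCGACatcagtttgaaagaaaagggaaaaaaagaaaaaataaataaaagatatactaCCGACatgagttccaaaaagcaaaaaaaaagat

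Jasmonate genes were lower in replicate 4. Jasmonate is the hormone of wounding and herbivory, and the JAZ genes encode repressors that it induces. Of 16 genes 11 were called lower and 1 higher, beside 6.47% and 5.81% of all tested genes, with a median of -2.12. JAZ7 had 9.46 TPM in replicate 4, against 244, 303 and 209 TPM in replicates 5, 7 and 8 (-5.10 ± 0.34 log2, SE, edgeR adjusted p = 0.000182). JAZ8 had 5.58 TPM in replicate 4 against 72.4, 154 and 103 TPM. For both, replicate 4 was more than 10-fold below each of the others. The biosynthesis genes OPR3 and LOX4 had 58.0 and 28.2 TPM in replicate 4, against 187 to 367 TPM and 113 to 225 TPM, and the transcription factor MYC2 had 54.1 TPM against 127 to 179 TPM. LOX2, the most abundant lipoxygenase of the list, was not called, with 221 TPM in replicate 4 and 178 to 349 TPM in the others. VSP2, a late storage protein of the response, was the 1 called higher, with 65.3 TPM in replicate 4 against 9.09, 4.09 and 13.3 TPM. The count of lower calls was 4 with limma on TPM, and VSP2 was not called there or with DESeq2. Of the list, 6 of 16 genes also varied over 2-fold within replicates 5, 7 and 8, beside 3.87% of all genes.

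Other lists were smaller or mixed. In jasmonate-ethylene defence, 2 of 8 were called higher. PDF1.2A, a defensin, had 92.7 TPM in replicate 4 against 9.87, 14.5 and 19.9 TPM, and PDF1.2C had 128 counts in replicate 4 and 0 in the others, at least 70.4-fold higher. Flavonoid genes were lower, with 5 of the 7 tested called lower (median -2.65). CHS, the entry enzyme of the pathway, had 2.03 TPM in replicate 4 against 42.7, 24.2 and 33.2 TPM. The median level over the 14 flavonoid genes was 0.943 TPM, so most rest on few counts. By sum the list had 114 TPM in replicate 4 and 191, 136 and 197 TPM in replicates 5, 7 and 8, a smaller difference than for CHS. The 19 glucosinolate genes went in both directions, with a median of -0.33 (log2). CYP79F1 lay inside the range of the other libraries, with 142 TPM in replicate 4 against 145, 123 and 147 TPM in replicates 5, 7 and 8. MYB28 and MYB29, regulators of the methionine-derived branch, had 47.8 and 31.9 TPM in replicate 4 against 7.29 to 13.2 TPM and 6.21 to 10.2 TPM, whereas CYP79B2, of the tryptophan-derived branch, had 15.7 TPM against 48.3, 55.4 and 47.1 TPM. SAG12, a protease gene of senescence, had 137 counts in replicate 4 and 0 in the others, at least 75.3-fold higher, while the senescence regulator NAP had 5.37 TPM against 21.8, 13.1 and 19.4 TPM. These 2 were the calls among 8 senescence genes tested. Of the salicylic acid list 0 of 11 tested were called by edgeR, with 1 higher and 3 lower at an unadjusted p under 0.05, 0 by DESeq2 and 1 by limma-voom. Of the heat shock list 0 of 5 were called by edgeR, with 1 higher and 2 lower at an unadjusted p under 0.05, 0 by DESeq2 and 1 by limma-voom.

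Genes often used to normalize were not all even. Of 11, 2 were called lower. GAPC2, a cytosolic glyceraldehyde phosphate dehydrogenase, had 649 TPM in replicate 4 against 1203, 1028 and 1118 TPM (-1.24, edgeR adjusted p = 0.00396), and EF1A4, an elongation factor, had 543 TPM against 807, 830.0 and 1029 TPM (-1.23, edgeR adjusted p = 0.00378). ACT2, an actin, had 405 TPM in replicate 4 against 282, 280.3 and 285 TPM and lay at 0.03 on the TMM scale (edgeR adjusted p = 0.899). Its copy ACT8 is 90.9% identical. Of 179 cytosolic ribosomal protein genes tested 5 were called lower and 0 higher, of 44 histone genes 1 and 2, and of 17 tubulin genes 0 and 3, beside 6.47% of all tested genes called lower and 5.81% higher. Among the markers, SWEET12 (phloem), KAT1 (guard cell), PDF1 (epidermis) and PYK10 (root) were called higher in replicate 4, and APL (phloem), XCP1 (xylem), TRY (trichome) and CRU3 (seed) lower. TRY had 0 counts in replicate 4 and 33, 17 and 27 in the others, at least 15.6-fold lower. Over whole marker lists the median difference was -0.70 (log2) for phloem, -0.56 for xylem, -0.37 for guard cell and -0.004 for epidermis. Epidermis markers summed to 1418 TPM in replicate 4 and 1714 to 2555 TPM in the others, although PDF1 was higher in replicate 4. Whether cell makeup has a part in the lists above was not tested.

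Most of the largest changes by fold were genes with 0 counts on one side. Among the 10 largest rises, AT2G07741 was called with 4116 counts in replicate 4 against 11, 10 and 11 (7.69 ± 0.18 log2, SE, edgeR adjusted p = 3.54e-06). The long non-coding RNA AT2G09250 had 660 counts in replicate 4 and 3, 1 and 0 in the others. U1.5, ELF4, SAG12 and PDF1.2C, given above, are 4 more, and AT5G37950, AT5G39240, AT3G08595 and AT3G07315 had 63, 43, 42 and 32 counts in replicate 4 and 0 in the others, at least 34.6-, 23.6-, 23.1- and 17.59-fold higher. The 10 largest falls had 0 counts in replicate 4. They were AT2G07751, with 160, 256 and 331 counts in replicates 5, 7 and 8 and at least 151-fold lower with a floor of 3 counts in replicate 4, and AT5G03615, AT1G24881, AT4G13572, CEL5, AT5G08855, AT2G07692, AT3G05945, AT1G30730 and AT2G38240, at least 36.8- to 82.9-fold lower. CEL5 is a cellulase of the root cap, with 103, 106 and 97 counts in replicates 5, 7 and 8. AT1G24881, an F-box protein gene, has identical copies, so its counts are uncertain. AT2G07741, AT2G07751 and AT2G07692 match the mitochondrial genome at 100% identity over 100% of the transcript, so their counts are uncertain too.

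Replicates 5, 7 and 8, which carry the same labels, still differed at 506 genes by more than 2-fold. Replicate 5 was highest for 161, replicate 7 for 195 and replicate 8 for 150, and replicate 8 was lowest for 222. Wound and elicitor genes were prominent by count, with 11 of 16 past 2-fold beside 3.87% of all genes, and replicate 8 was the lowest of the 3 for each of the 11. ERF104, an ethylene response factor, had 95.4 TPM in replicate 5, 60.6 in replicate 7 and 22.1 in replicate 8, and ERF5 had 107, 68.7 and 27.4 TPM. CML37, a calmodulin-like protein, had 7.48, 22.0 and 3.99 TPM, in the same order of libraries. The zinc finger gene ZAT10 had 422, 385 and 148 TPM, and ACS6, an enzyme of ethylene synthesis, had 392, 475 and 159 TPM. Replicate 4, with 126 TPM for ZAT10, lay below all 3, and with 249 TPM for ACS6 and 53.4 TPM for ERF104 it lay inside their range. The same list had 5 genes called lower in replicate 4, among them ERF109, with 19.3 TPM in replicate 4 against 135, 259 and 112 TPM in replicates 5, 7 and 8, and CML38, with 102 TPM against 461, 749 and 326 TPM.

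Cold genes varied here too, 5 of 14 past 2-fold beside 3.87% of all genes. CBF2 had 132 TPM in replicate 5, 88.8 in replicate 7 and 33.6 in replicate 8, with 95.5 TPM in replicate 4. WRKY70, a regulator of salicylic acid defence, had 152, 119 and 51.2 TPM in the same 3 libraries and 187 TPM in replicate 4. For both, replicate 8 was lowest. Photosynthesis and clock genes had 0 members past 2-fold within replicates 5, 7 and 8, beside 3.87% of all genes. For the clock list, with 14 genes in the set, this is near that share. The 10 genes with the largest range within the 3 libraries had mixed annotations. AT1G13609, a defensin-like gene, had 0 counts in replicate 4, 8 in replicate 5, 23 in replicate 7 and 0 in replicate 8. AT2G43620, of the chitinase family, had 0.826, 20.6, 2.02 and 4.88 TPM in that order. TPX2, a thioredoxin-dependent peroxidase, and XTH15, a cell wall enzyme, had 19.99 and 30.5 TPM in replicate 5, against 2.08 and 3.54 TPM in replicate 7 and 1.52 and 3.81 TPM in replicate 8. PDF1.4, a defensin, was highest in replicate 8, with 34.6 TPM against 14.9 TPM in replicate 5 and 3.27 TPM in replicate 7. BHLH100, a transcription factor of iron deficiency, had 2.91, 8.53 and 0.981 TPM in replicates 5, 7 and 8 and 13.1 TPM in replicate 4. With few counts behind several of these genes, their order between libraries is less firm than that of the abundant ones.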

How the data were processed

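Rosette leaf total RNA of 4 WT libraries was analysed. Per the labels and the study's methods, total RNA was depleted of rRNA (Ribo-Zero Plant), made into stranded libraries and read as pairs on an Illumina HiSeq instrument. The authors trimmed reads and removed rRNA reads with BBDuk2, then quantified Araport11 transcripts with Salmon (0.13.1 in the submitters' processing notes). The study's reporting summary names another version of Salmon, so the version used is not settled here. The authors deposited estimated counts per gene, rounded to whole numbers, and TPM per gene. The deposited TPM sum to 1000000 in replicate 4 and to 964634, 960027 and 955462 in replicates 5, 7 and 8, so nuclear TPM were rescaled to a common sum. The 12 other columns of each table belong to other samples and were not used.

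RefSeq TAIR10.1 gave names and places for 31742 nuclear identifiers. Names of organelle identifiers came from name columns of the study's supplementary lists and from RefSeq notes. Replicate 4 was set against replicates 5, 7 and 8 with edgeR 4.0.16 (R 4.3.3): filterByExpr, TMM, glmQLFit and glmQLFTest over nuclear genes, two-sided, Benjamini-Hochberg adjusted p under 0.01 and at least 1.5-fold, the limits of the study's own methods. The study used limma. The variation set needed a mean of 5 TPM and 10 counts in the highest library, and log2 CPM used a prior count of 2. Alternatives were DESeq2 1.42.0, limma 3.58.1 on voom weights or on log2(TPM + 1) and log2(TPM + 0.1), other scalings, filters and thresholds, and each library left out. The edgeR step was tested on simulated data (18027 genes), where it recovered 41.8% of 2-fold, 94.0% of 4-fold and 96.9% of 8-fold changes and called 0 unchanged genes. The simulation gave every gene the same dispersion and replicate 4 the same spread as the other libraries. It therefore cannot show how many calls in the real data are wrong. Near-identical copies and organelle matches were found with BLAST+ 2.17.0.

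Named genes were the most abundant of each genome, the 15 largest and 5 smallest ranges over the 4 libraries, the 10 largest ranges within replicates 5, 7 and 8, the 10 largest rises and falls, and members of the gene lists with the highest levels, with a range over 2-fold or needed as markers or near copies. The libraries and lists were chosen with earlier results of these data known. Nothing in the labels says that libraries came from separate growth batches, so p-values measure only the spread between these samples, which may be technical.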

Additional observations from a re-analysis of the deposited data

Results flagged for a closer look

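Of 75 group values looked at over the 4 WT libraries, 18 had 1 library far from the other 3 by Dixon's test, each time replicate 4, where chance gives about 1 in 20. Replicate 4 was far below the others for the share of nuclear TPM of antenna genes (12.9% against 15.1% to 15.3%), of electron transport and ATP synthase genes (1.04% against 1.57% to 1.66%), of Rubisco with its activase (1.58% against 3.35% to 3.62%) and of all 8 photosynthesis lists (24.4% against 31.7% to 32.9%). It was likewise far below for LHCB1.1 (4408 TPM against 10477 to 10911), RBCS3B (4547 TPM against 10191 to 10568) and the chloroplast gene RBCL (35606 TPM against 53680 to 56085).

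Replicate 4 was far above the others for the share of clock genes (0.0657% against 0.0378% to 0.0414%), of jasmonate-ethylene defence genes (0.0235% against 0.00406% to 0.00605%), of cell division genes (0.00720% against 0.00356% to 0.00418%) and of tubulins (0.267% against 0.153% to 0.170%). It was also far above for the mitochondrial identifiers ATMG00650 (739 TPM against 425 to 478), NAD1C (484 TPM against 309 to 315), ATMG00410 (333 TPM against 246 to 261), NAD4 (357 TPM against 214 to 223) and NAD9 (277 TPM against 232 to 239). PSBA took 37.0% of all its counts against 31.6% to 32.5%, and 457 genes held 50% of its nuclear TPM against 196 to 239. Of the 9 cell division genes tested, 0 were called by edgeR or DESeq2 and 1 by limma-voom, with 2 higher at an unadjusted p under 0.05, and on the nuclear TPM scale of these shares the median gene was 0.38 higher (log2) in replicate 4. With each library set to the same TPM total, an alternative chosen after seeing the data, 3 of the 6 organelle genes (RBCL, NAD1C and NAD4) still stood apart by Dixon's test, and replicate 4 was still above the others for ATMG00650, ATMG00410 and NAD9. These values share libraries and totals and are not independent of each other, and their causes were not tested.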

How the results depend on the processing

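Shares by genome depended on the unit and on PSBA. The chloroplast share of 62.6% of counts was 74.4% of TPM and 43.96% without PSBA, the nuclear share of 34.2% was 15.8% and 51.3%, the mitochondrial share of 0.705% was 0.630%, 1.06% and, for protein-coding genes alone, 0.351%, and the ENSRNA share of 2.46% was 9.20% and 3.67%. Leaving out each library gave 61.6% to 63.5% for the chloroplast, 33.5% to 35.1% for the nucleus, 0.686% to 0.727% for the mitochondrion, 2.22% to 2.77% for ENSRNA identifiers, 29.4% to 32.2% for the photosynthesis share, 16271 to 16522 detected genes and 221.7 to 308.7 genes for 50% of nuclear TPM. With non-coding genes in the total the photosynthesis share was 24.5% and the number of genes for 50% was 129.8, and by counts that number was 456, beside a mean of 280.5. Setting every library to the same TPM total moved none of the means of 20 organelle genes by more than their SD.

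Genes varying over 2-fold between the 4 libraries numbered 5202 with a mean of at least 1 TPM and 8437 with no filter, beside 3196, and 506 to 2814 when 1 library was left out. Replicate 4 decides this count: without it 506 remained. Within replicates 5, 7 and 8 the 506 became 1237, 3683 and, with 1 library left out, 201 to 266. The 2281 calls of replicate 4 were 1119 with limma on log2(TPM + 1), 839 on log2(TPM + 0.1) and 5168 at an adjusted p under 0.05, and 2136 to 2860 with 1 library left out. Higher calls were 503 on log2(TPM + 0.1), 2499 at 0.05 and 981 to 1281 with 1 library left out, and lower calls 320, 336, 2669 and 1150 to 1579. The share of lower calls was 52.7% with edgeR, 65.2% with DESeq2, 28.6% on log2(TPM + 1) and 40.05% on log2(TPM + 0.1), where the median gene was 0.38 and 0.43 higher in replicate 4. DESeq2 called 2442 genes and limma-voom 2304. Without organelle-like and ribosomal DNA genes, an alternative chosen after seeing the data, 2233 were called and 3152 varied over 2-fold. Over 139 named genes and their alternatives, 1438 of 1661 values kept direction and call, 223 kept the direction and lost the call, and 0 reversed. No paired analysis was possible because no replicate number occurs both in replicate 4 and in the libraries it was set against. Depth limits genes with few counts most, and 9010 identifiers had none.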
